A study of Mus musculus with 4 samples.

Results

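The D cyclins, their kinase partners Cdk4 and Cdk6, and the inhibitors that act on these kinases decide whether a cell in the G1 phase goes on to copy its DNA. They were followed here on Affymetrix mouse arrays of growth plate cartilage. The members were all probe sets whose gene symbol in the array annotation is exactly Ccnd1, Ccnd2, Ccnd3, Cdk4, Cdk6, Cdkn1a, Cdkn1b, Cdkn1c, Cdkn2c or Cdkn2d. This rule found 26 probe sets of 10 genes, of 45101 probe sets on the array. The study compared 2 control samples, wild-type by their labels, with 2 samples from Col2aCre;Ift88fl/fl mice, in which Ift88 is deleted, a gene of the transport machinery that builds the primary cilium. All mice were on the C57BL/6 background and 7 days old. Proliferative zone chondrocytes were cut with a needle from 40 µm sections of the proximal tibia and distal femur, so that a sample holds whatever cells lay in the cut piece. The Cre is driven by Col2a regulatory sequence and acts in cartilage cells, and the labels do not say whether the control mice carried Cre or floxed alleles. The design names biological replicates, and sex and litter were not given.

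In the G1 phase, mitogen signals induce D cyclins, which bind Cdk4 or Cdk6, and the active kinase phosphorylates the retinoblastoma protein and its relatives. This releases E2F transcription factors, which switch on cyclin E and the genes of DNA synthesis. The INK4 inhibitors, among them the products of Cdkn2c and Cdkn2d, bind Cdk4 and Cdk6 themselves. The Cip/Kip inhibitors, the products of Cdkn1a (p21), Cdkn1b (p27) and Cdkn1c (p57), act mainly on cyclin-Cdk2 complexes. In the growth plate, cyclin D1 is known to be needed for normal chondrocyte proliferation, and Cdkn1c for the cell cycle exit that precedes hypertrophy. Hedgehog and Wnt signals are known inducers of D cyclins in several tissues.

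All values below are on a log2 scale on which 0 is the middle of the 4 arrays for that probe set. They therefore compare arrays and carry no expression level. With the level gone, the labelled cell type could not be checked against its markers. The single probe set of Ift88 read 0.07 and -0.08 in the controls and 0.22 and -0.07 in the Ift88-deleted arrays. Its difference was 0.08 (SE 0.166, 95% interval -0.34 to 0.50), and its place on the gene was not analysed here, so it does not check the labels. In Ift88-deleted against control arrays, Xist was at -6.46, -7.72 and -7.91 over 3 probe sets, and the Y-linked Eif2s3y at 6.59 on 1417210_at (adjusted p = 0.00121 in limma). The other Eif2s3y probe set was at 0.09, and Ddx3y was not analysed here. One or more probe sets of Uty (3.68 and 2.22) and Kdm5d (4.77) were higher as well. The split by these sex-linked genes is the split by genotype, so sex and genotype cannot be told apart in any difference given here. Control 1 was the array with the widest values (SD over probe sets 0.289, against 0.173 to 0.223 in the others).

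Ccnd2 on all 7 of its probe sets, and Ccnd1 on 2 of 3, had higher values in both Ift88-deleted arrays. Cdk6 had lower values on most of its probe sets, and the inhibitors were split: Cdkn1b stood above and Cdkn1a and Cdkn2d below the controls. These are measured differences that did not pass the test. In limma, fitted over 45037 probe sets, 0 of the 26 member probe sets had an adjusted p under 0.05, with adjusted p values from 0.299 to 1. The background is low, since 0.0444% of all probe sets passed, and most of those with a single gene name were sex-linked. An unadjusted p under 0.05 was found for 10 of the 26, 8 higher and 2 lower, against 6.17% of all probe sets (3.0% higher and 3.18% lower). The groups did not overlap for 17 of the 26 (11 higher, 6 lower), against 33.6% of all probe sets (16.2% higher and 17.4% lower). Probe sets of 1 gene read the same RNA on the same arrays, so the 26 are not 26 separate observations. They were also chosen with earlier results of these data known. The median difference over the members was 0.11, against 0.002 over all probe sets. In these pieces of tissue, fewer cells of a type and less RNA per cell cannot be told apart.

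**Figure D1:**
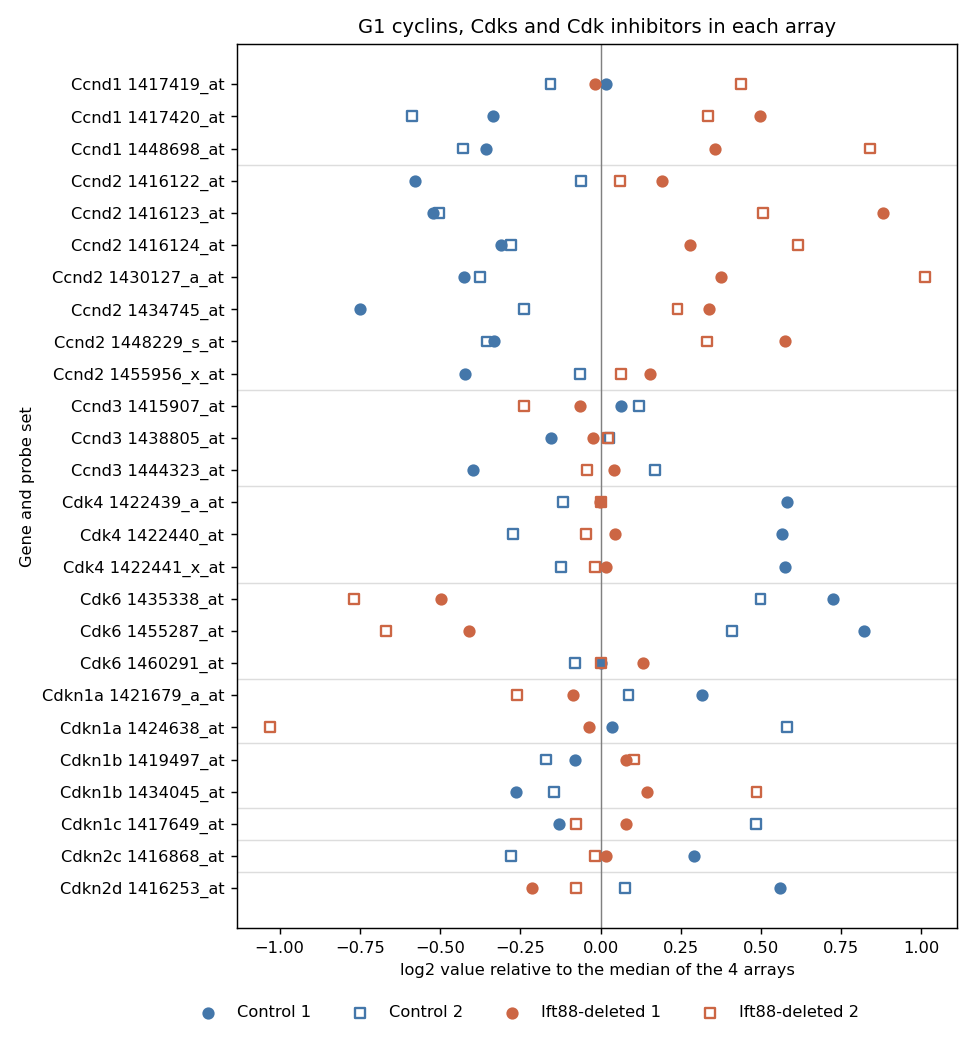
Each row is a probe set of a named gene, and the horizontal axis is its log2 value relative to the median of the 4 arrays. Blue marks are control 1 (filled circle) and control 2 (open square), red marks Ift88-deleted 1 and 2. All 7 rows of Ccnd2 have both red marks to the right of both blue marks, the first 2 rows of Cdk6 have them far to the left, and the Cdk4 rows show control 1 alone at 0.57 to 0.58.

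Among the D cyclins, Ccnd1 encodes cyclin D1 and was read by 3 probe sets, which all derive from the same reference transcript. Probe set 1417420_at was at -0.34 in control 1, -0.59 in control 2, and 0.50 and 0.34 in Ift88-deleted 1 and 2. Probe set 1448698_at was at -0.36 and -0.43 in the controls and at 0.36 and 0.84 in the Ift88-deleted arrays. On both of these the groups lay apart, with the Ift88-deleted arrays higher and gaps between replicates of 0.07 to 0.48. The differences were 0.88 (SE 0.162, 95% interval 0.47 to 1.28, 1.84-fold, adjusted p = 0.456) and 0.99 (SE 0.200, 95% interval 0.49 to 1.49, 1.99-fold, adjusted p = 0.517), each with n = 2 per group. The remaining one, 1417419_at, was at 0.02 and -0.16 in the controls and -0.02 and 0.44 in the Ift88-deleted arrays. There the groups overlapped, only Ift88-deleted 2 stood high, and the difference was 0.28 (SE 0.199, adjusted p = 0.923). By the numeric steps of the values, this probe set belonged to the middle of 3 coarse signal classes and the other two to the brightest. With each array left out in turn, the 3 differences stayed above 0, with the lowest at 0.05 for 1417419_at and at 0.75 for the other 2. For those 2 the groups lay apart, which fixes the sign in such fits.

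Ccnd2, which encodes cyclin D2, was the member with the most probe sets, and all 7 placed both Ift88-deleted arrays above both controls. Probe set 1416123_at showed the largest of these differences, with -0.52 and -0.50 in the controls and 0.88 and 0.50 in the Ift88-deleted arrays. The control arrays differed by 0.02 and the difference between groups was 1.20 (SE 0.176, 95% interval 0.76 to 1.65, 2.31-fold, adjusted p = 0.323). Probe set 1430127_a_at was at -0.43 and -0.38 in the controls and at 0.38 and 1.01 in the Ift88-deleted arrays, a difference of 1.09 (SE 0.234, 2.13-fold, adjusted p = 0.541). Here Ift88-deleted 2 was the higher array, whereas on 1416123_at it was Ift88-deleted 1, so neither mutant array was uniformly ahead. Probe sets 1448229_s_at, 1434745_at and 1416124_at gave 0.80, 0.78 and 0.74. The smallest differences came from 1416122_at (0.45, SE 0.21) and 1455956_x_at (0.35, SE 0.175), where control 2 at -0.06 lay close to Ift88-deleted 2 at 0.06, and these were 0.19 and 0.17 without control replicate 1. The suffix x marks probe sets that may also bind other transcripts. The median over the 7 was 0.78 with an SD of 0.31 among them. With the groups apart on all 7, leaving out 1 array could not turn a sign. Of 856 genes with 5 or more probe sets, 0.234% (2 genes) had all of them apart and higher, and 0.467% all apart and lower. Ccnd2 is itself 1 of the 2, so this share describes the array and is not a test of Ccnd2. Averaged over its probe sets, Ccnd2 was at -0.48 and -0.27 in the controls and 0.40 and 0.40 in the Ift88-deleted arrays, a difference of 0.77 (SE 0.136, adjusted p = 0.329 over 18193 genes in limma). The same mean for Ccnd1 was 0.72 (SE 0.151, adjusted p = 0.459).

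Ccnd3, the gene of cyclin D3, differed from its relatives in showing no common direction over its 3 probe sets. Probe set 1415907_at was at 0.06 and 0.12 in the controls and at -0.06 and -0.24 in the Ift88-deleted arrays, so the groups were apart with the Ift88-deleted arrays lower (-0.24, SE 0.145, 95% interval -0.61 to 0.12, adjusted p = 0.897). The groups overlapped on 1438805_at (0.06, SE 0.146), which was of the dimmest class, and on 1444323_at (0.11, SE 0.219), where control 1 was lowest at -0.40 and control 2 highest at 0.17. Both of these turned below 0 without control replicate 1 (-0.03 and -0.17). The mean over the 3 was -0.02 (SE 0.146, 95% interval -0.38 to 0.34), and the difference between the cyclin genes was not tested.

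Of the kinases, Cdk4 showed a gap between the control arrays and no group difference beyond it. Its 3 probe sets were at 0.58, 0.57 and 0.58 in control 1 and at -0.12, -0.27 and -0.12 in control 2. The Ift88-deleted arrays lay between the controls, at -0.05 to 0.05, and as the middle pair of 4 values they average 0 by the centring. The gap between the control arrays was 0.70 to 0.84, larger than the group differences of -0.23, -0.15 and -0.23 (SE 0.25 to 0.288, adjusted p = 0.971 to 0.999). Without control replicate 1 all 3 turned above 0 (0.12 to 0.27), and without control replicate 2 they reached -0.57 to -0.58.

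Cdk6 held the largest difference of any member. Probe set 1435338_at was at 0.73 and 0.50 in the controls and at -0.50 and -0.77 in the Ift88-deleted arrays. Probe set 1455287_at, which derives from the same database sequence, was at 0.82 and 0.41 in the controls and at -0.41 and -0.67 in the Ift88-deleted arrays. Both separated the groups by more than the gaps between replicates, which were 0.23 to 0.41. The differences were -1.25 (SE 0.172, 95% interval -1.68 to -0.82, 2.37-fold lower, adjusted p = 0.299) and -1.15 (SE 0.199, 95% interval -1.65 to -0.65, 2.22-fold lower, adjusted p = 0.408). Leaving out each array in turn gave -1.38 to -1.11 and -1.36 to -0.95. The remaining probe set, 1460291_at, derives from a reference transcript and was at 0.00 and -0.08 in the controls and 0.13 and 0.00 in the Ift88-deleted arrays. Its difference of 0.11 (SE 0.142, 95% interval -0.25 to 0.46) has an interval that does not meet those of the other two, and all 3 were of the brightest class. Which transcript ends these probe sets read was not analysed here, and the mean of -0.76 over the gene (SE 0.154, adjusted p = 0.430) mixes both readings.

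Sequences before the start of transcription were taken from RefSeq for GRCm38.p6, 250 bases for each annotated start, and 7 of the 10 members had at least 1 such window (10 windows in all). Those of Cdk6, Cdkn1b and Cdkn1a are shown because these are the members with a window whose groups lay apart on 2 probe sets. Capitals mark motifs found on either strand, none of which overlap, by exact match except for the p53 pattern. The Cdk6 window is chr5:3343643-3343892 on the plus strand, with the E-box CACGTG and a TATAAA run that ends 98 bases before the start.
Cdk6: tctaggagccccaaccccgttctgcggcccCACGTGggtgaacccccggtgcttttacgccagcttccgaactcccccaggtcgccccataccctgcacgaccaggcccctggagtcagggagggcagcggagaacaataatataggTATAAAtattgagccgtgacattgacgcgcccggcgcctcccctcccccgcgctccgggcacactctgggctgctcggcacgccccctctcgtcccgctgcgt
Cdkn1b: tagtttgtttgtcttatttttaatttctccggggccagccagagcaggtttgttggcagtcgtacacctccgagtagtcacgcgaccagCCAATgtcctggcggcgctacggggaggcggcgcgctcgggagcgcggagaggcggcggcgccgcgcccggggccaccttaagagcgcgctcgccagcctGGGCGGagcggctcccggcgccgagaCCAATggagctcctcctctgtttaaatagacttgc
Cdkn1a, upstream start: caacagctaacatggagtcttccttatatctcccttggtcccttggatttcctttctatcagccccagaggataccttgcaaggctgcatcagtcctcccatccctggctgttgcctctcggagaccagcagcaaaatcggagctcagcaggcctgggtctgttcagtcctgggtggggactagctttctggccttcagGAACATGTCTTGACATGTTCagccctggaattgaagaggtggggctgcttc
The Cdkn1b window is chr6:134920151-134920400 and the Cdkn1a window chr17:29090729-29090978, both on the plus strand. CACGTG, the E-box that Myc and related factors can bind, was present in 6.02% of 32851 such windows, and TATAAA in 12.4%. The window of Cdk4, which is not shown, also held CACGTG, at 4 places. The Cdkn1b window held CCAAT at 2 places and the GC box GGGCGG at 1, motifs found in 33.8% and 32.7% of windows. The GLI motif GACCACCCA, the E2F motifs TTTCCCGC and TTTGGCGC and the cyclic AMP element TGACGTCA were in none of the 10 member windows, and occur in 0.225%, 1.3% and 1.55% of all windows. The TCF/LEF motif CTTTGAT, in 3.21% of windows, was found in that of Cdk4 alone among the 10. In the upstream Cdkn1a window the capitals are the binding pattern of p53, a known inducer of this gene, with at most 1 mismatch in 20 bases, a rule chosen after the window was seen. It lay 51 to 32 bases before the upstream start, and 0.0761% of all windows held such a match. The window of the other Cdkn1a start, which is not shown, held no such match and 2 GC boxes. A match is a run of letters and was not measured for binding here.

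The Cip/Kip inhibitors were split by gene. Cdkn1a, the gene of p21, was lower on both probe sets. Probe set 1424638_at was at 0.04 and 0.58 in the controls and at -0.04 and -1.03 in the Ift88-deleted arrays, which gave -0.84 (SE 0.369, 95% interval -1.76 to 0.08, 1.79-fold lower, adjusted p = 0.826). Control 1 and Ift88-deleted 1 were 0.07 apart there, so the size rests on the second array of each group: it was -0.34 without Ift88-deleted replicate 2 and -0.57 without control replicate 2. Probe set 1421679_a_at was at 0.32 and 0.09 in the controls and at -0.09 and -0.26 in the Ift88-deleted arrays, a difference of -0.38 (SE 0.16, adjusted p = 0.818). Cdkn1b, the gene of p27, ran the other way. Its probe set 1434045_at was at -0.26 and -0.15 in the controls and 0.15 and 0.49 in the Ift88-deleted arrays, a difference of 0.52 (SE 0.173, 95% interval 0.09 to 0.95, 1.44-fold, adjusted p = 0.744). The dimmest-class probe set 1419497_at gave 0.22 (SE 0.137) in the same order, with groups apart. Cdkn1c, the gene of p57, had 1 probe set, at -0.13 and 0.48 in the controls and 0.08 and -0.08 in the Ift88-deleted arrays. The groups overlapped, the controls were 0.61 apart, and the difference of -0.18 (SE 0.234, 95% interval -0.76 to 0.41) turned to 0.13 without control replicate 2.

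Of the INK4 inhibitors, Cdkn2d (p19) was lower and Cdkn2c (p18) had a difference near 0. Cdkn2d was at 0.56 and 0.08 in the controls and at -0.21 and -0.08 in the Ift88-deleted arrays. The groups were apart, but the controls differed by 0.48, about the size of the difference of -0.46 (SE 0.202, 95% interval -0.97 to 0.05, adjusted p = 0.825), which was -0.22 without control replicate 1. Cdkn2c was at 0.29 and -0.28 in the controls and 0.02 and -0.02 in the Ift88-deleted arrays, and its difference of -0.01 (SE 0.219, 95% interval -0.55 to 0.54) leaves room for changes of either sign. Control 1 was the higher control for Cdk4, Cdkn2c and Cdkn2d alike.

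**Figure D2:**
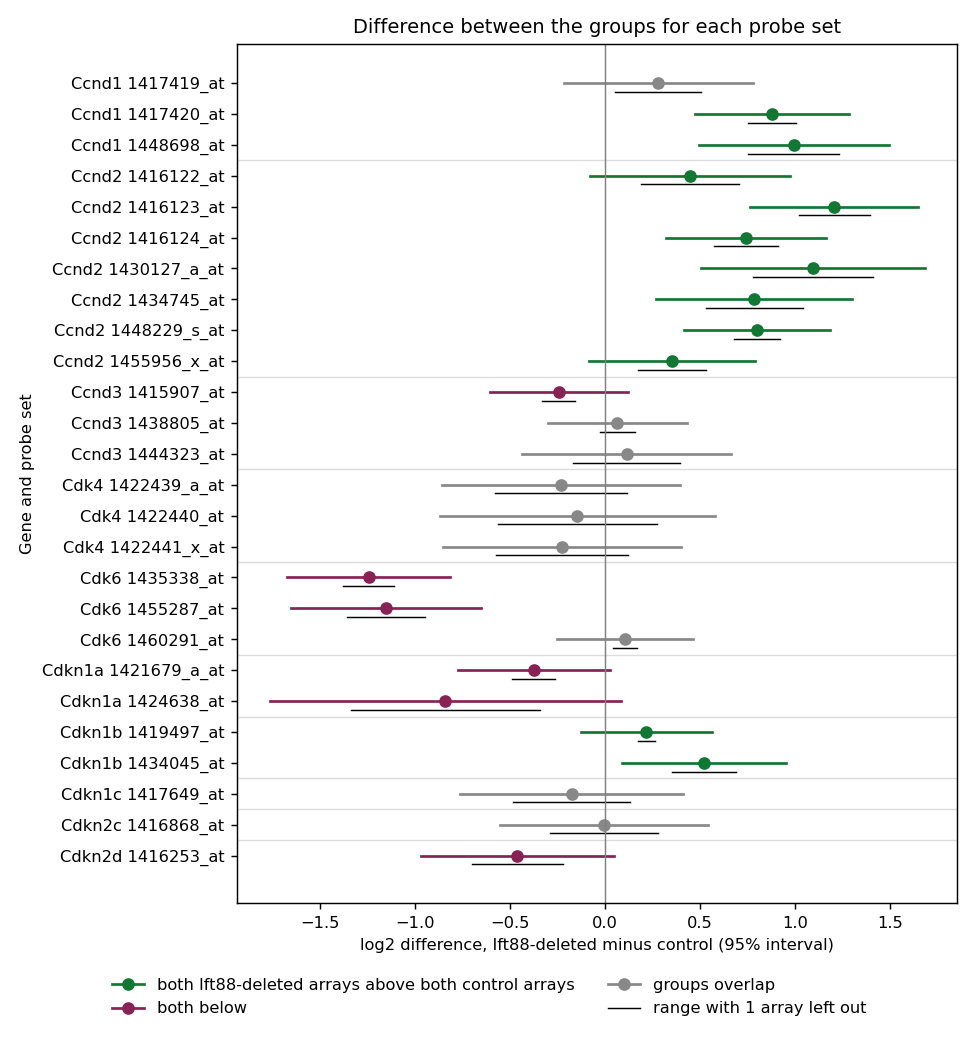
Points are the log2 difference of Ift88-deleted minus control for each probe set, with the 95% interval from limma. The thin black line below each gives the range when 1 of the 4 arrays is left out. Green and purple mark groups that lie apart, grey those that overlap. The interval stayed on 1 side of 0 for 2 probe sets of Ccnd1, 5 of Ccnd2, 2 of Cdk6 and 1 of Cdkn1b.

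For some members the differences were larger than those of most probe sets. Members were chosen with earlier results of these data known. In addition, 13 of the 26 were of the brightest signal class, against 25% of the probe sets on the array. A comparison within signal classes was not made. Over all probe sets, 95% of differences were smaller than 0.54 on the log2 scale, and 10 of the 26 member probe sets exceeded this: 2 of Ccnd1, 5 of Ccnd2, 2 of Cdk6 and 1 of Cdkn1a. Replicate gaps of the members were like those of other probe sets, with a median of 0.24 between the controls and 0.16 between the Ift88-deleted arrays, against 0.22 and 0.15 over all.

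Further along the pathway, no partner, pocket protein or E2F factor was called. Of 17 partners of the G1 to S step, which include cyclin E, Cdk2, Cdk-activating kinase and ubiquitin ligase subunits, 0 of 37 probe sets were called in limma, 1 higher and 1 lower had an unadjusted p under 0.05, and 12 lay above and 25 below 0. The median difference of -0.07 moved to 0.04 when control replicate 1 was left out and to -0.17 when control replicate 2 was, with control 1 at a median of 0.17 and the other arrays at -0.06, -0.03 and 0.01. Ccna2, the cyclin of S phase and G2, was at 0.76 and 0.19 in the controls and -0.19 and -0.22 in the Ift88-deleted arrays (-0.68, SE 0.221, adjusted p = 0.737), and at -0.39 without control replicate 1. Fbxw7, a ubiquitin ligase subunit that targets cyclin E, was at 0.66 (SE 0.24, adjusted p = 0.773), with 0.37 without Ift88-deleted replicate 2. Ccnh, the cyclin of the Cdk-activating kinase, was at -0.49 (SE 0.243), with -0.15 without control replicate 1. Each of these values is of 1 probe set, and the gene means were -0.38 for Ccna2, 0.32 for Fbxw7 and -0.20 for Ccnh. Pocket proteins and E2F factors, 13 genes with 29 probe sets, had 0 called, 0 with an unadjusted p under 0.05, and 14 above and 15 below 0 (median -0.01). In this list the largest differences with groups apart were those of E2f2 (-0.58, and -0.20 without control replicate 2), E2f8 (-0.45, and -0.13 without control replicate 1) and E2f3 (0.39, and 0.20 without Ift88-deleted replicate 2). Their gene means were -0.37, -0.28 and 0.19.

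Genes of DNA synthesis and mitosis stood high in control 1 alone. Of 55 probe sets of 23 S-phase genes, 0 were called, 1 had an unadjusted p under 0.05, and 18 lay above and 37 below 0, where 50.5% of all probe sets lay above. Control 1 had a median of 0.24 over them and the other arrays -0.04, -0.03 and -0.01. The median difference of -0.11 became 0.04 without control replicate 1. Rfc4 (-0.94, SE 0.377, 1.20 in control 1, gene mean -0.73), Cdc6 (-0.54) and Pcna (-0.54) had the largest differences with groups apart. On these probe sets they were at -0.39, -0.34 and -0.30 without control replicate 1. Of 47 probe sets of 22 G2/M genes 0 were called, 4 had an unadjusted p under 0.05, all lower, and 36 lay below 0. Control 1 had a median of 0.44 and the others -0.09, -0.04 and -0.03. The median difference of -0.22 became 0.09 without control replicate 1 and -0.51 without control replicate 2. Cenpe (-0.82, gene mean -0.50), Cdca8 (-0.78, gene mean -0.56) and Ube2c (-0.77) led this list. On these probe sets they were at -0.35, -0.17 and -0.49 without control replicate 1. The D cyclins did not share this order, with medians over their 13 probe sets of -0.36 and -0.24 in the controls and 0.28 and 0.33 in the Ift88-deleted arrays.

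**Figure D3:**
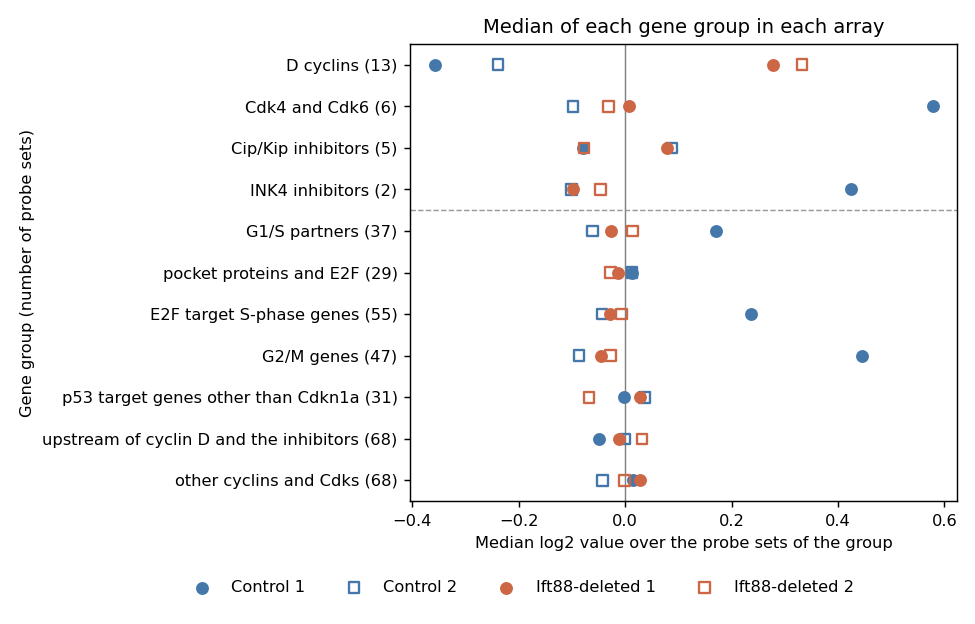
Each mark is the median log2 value of a gene group in 1 array, with the number of probe sets in brackets; control arrays are blue and Ift88-deleted arrays red, with replicate 2 as open squares. Groups above the dashed line are the members by role. The D cyclins have both red marks (0.28 and 0.33) apart from both blue marks. The pooled row of Cdk4 and Cdk6, the INK4 inhibitors and the S-phase and G2/M genes show control 1 alone to the right. Cdk6 by itself did not have this order, with gene means of 0.52 and 0.28 in the controls and -0.26 and -0.48 in the Ift88-deleted arrays.

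Genes that p53 induces along with Cdkn1a did not share its direction throughout. The list of such genes, as drawn up, also holds Trp53, the gene of p53 itself. Of 31 probe sets of 16 genes in the list, 0 were called, and 1 higher and 3 lower had an unadjusted p under 0.05 in limma. The median of -0.04 moved to 0.01 when Ift88-deleted replicate 2 was left out and to -0.08 when Ift88-deleted replicate 1 was. Mdm2, the ubiquitin ligase of p53, had probe sets of both signs, 1457929_at at 1.21 (SE 0.241, adjusted p = 0.513) and 1427718_a_at at -0.60 (SE 0.187), and Perp, a desmosome protein and p53 target, was at -0.58 (SE 0.196). Of the other cyclins and kinases, 24 genes with 68 probe sets, 0 were called, 2 higher and 2 lower had an unadjusted p under 0.05, and 33 lay above and 35 below 0. On 1 probe set each, Ccnc, the Mediator cyclin, was at 0.85 (SE 0.204, adjusted p = 0.608), Ccng2 at -0.75 (SE 0.252, and -0.40 without control replicate 1) and Cdk13 at -0.65 (SE 0.213). Averaged over their probe sets, these genes were at 0.30, -0.31 and -0.079.

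Signals known to act on D cyclins and the inhibitors included the 1 call among the 7 pathway lists. Of 68 probe sets of 25 upstream genes, 8 higher and 12 lower had an unadjusted p under 0.05 in limma. Over all probe sets the shares were 3.0% higher and 3.18% lower. This list was drawn up with earlier results of these data known. In it 1 probe set passed, where 0.0444% of all did. Ptch1, the Hedgehog receptor and a target of its own pathway, fell on that probe set, 1428853_at (1.26 and 1.01 in the controls, -1.01 and -1.02 in the Ift88-deleted arrays, -2.15, SE 0.154, adjusted p = 0.0416 in limma). With 1 array left out its adjusted p was 0.0924 to 0.286, and it was 0.0625 when genes on X and Y were left out and 0.0511 with each array's median subtracted. Another Ptch1 probe set was at -2.81 (SE 0.265, adjusted p = 0.119) and the last at 0.08. Gli1, induced by Hedgehog signals, was at 1.69 and 1.11 in the controls and -1.34 and -1.11 in the Ift88-deleted arrays (-2.62, SE 0.231, adjusted p = 0.0911). Lef1, a Wnt pathway transcription factor, was at 2.66 (SE 0.352, adjusted p = 0.265) on 1454734_at and 0.21 on 1421299_a_at. Axin2, a Wnt feedback gene, was at 0.65 (SE 0.289) and -0.10 (SE 0.134), the first being 0.29 without control replicate 1 and 1.01 without control replicate 2. Gli1, and Ptch1 on all but 1 of its probe sets, thus stood lower in the Ift88-deleted arrays. Ccnd2, Ccnd1 on 2 of its 3 probe sets and 1 probe set of Lef1 stood higher in the same arrays.

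Beside these values, part of the markers of other tissues lay apart by group. Of 14 skeletal muscle probe sets 13 lay below 0, with medians of 0.11 and 0.32 in the controls and -0.05 and -0.05 in the Ift88-deleted arrays. Tnni2 fell on 1416889_at (-3.17, SE 0.221, adjusted p = 0.0416 in limma), and its difference was -3.39 to -2.96 with 1 array left out. The call was lost in limma with array medians subtracted (adjusted p = 0.0511) and without X and Y genes (adjusted p = 0.0625). The gene mean of Tnni2 was -1.96 (adjusted p = 0.0673 in limma). Of 12 probe sets of resting zone and articular genes 8 lay below 0, with medians of 0.03 and 0.71 in the controls and -0.22 and -0.42 in the Ift88-deleted arrays. In this list 2 higher and 5 lower had an unadjusted p under 0.05 in limma, against 3.0% and 3.18% of all probe sets. The groups lay apart for 2 higher and 7 lower, against 16.2% and 17.4% of all. Prg4, the lubricin gene of the articular surface, was at 7.52 in control 2 and between -0.19 and 0.01 in the other arrays. Sfrp5 (-2.55 on 1 probe set, gene mean -1.33) and Fxyd2 (-2.05 on 1 probe set, gene mean -1.44) did not pass. Cartilage genes had a median difference of 0.01 (13 above and 9 below 0), with Comp at -0.54 (-0.32 without Ift88-deleted replicate 2), Hapln1 at -0.47 (-0.18 without control replicate 1) and Col9a1 at 0.26 (0.08 without Ift88-deleted replicate 1). Averaged over their probe sets, Hapln1 was at -0.23 and Col9a1 at 0.13. Lists for hypertrophic cells (median 0.08, with Pth1r at 0.40, and 0.22 without control replicate 1), endothelium (0.05), macrophages and osteoclasts (-0.07), red cells (-0.26, with Slc4a1 at -0.08) and osteoblasts and perichondrium (0.19, with Dcn at 1.00 and 0.90) had 0 calls. Slc4a1 was at -0.98 as a mean over its probe sets. The Ift88-deleted arrays stood far apart in the hypertrophic list (medians 0.68 and -0.35) and in the osteoblast and perichondrium list (0.68 and -0.59). Dcn was lowest in control 1 (-1.40 and -1.10), and was at 0.37 and 0.44 without that array. The part of these markers in the differences of the G1 genes was not tested.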

How the data were processed

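Total RNA (50 ng per sample) went through 2 rounds of amplification and was hybridised to Affymetrix arrays, 1 per sample, per the labels' protocols. The deposited values are log2: RMA is given, without a version, per the submitters' processing notes, and the table shows that each probe set's median over the 4 arrays had been subtracted (largest remaining median 5e-07). The log base was inferred, because the values fall on the single-precision steps of numbers between 2 and 16. The same steps gave each probe set a class for its lowest original value (25% at 8 or more, 56.5% at 4 to 8, 17.8% at 2 to 4), a coarse class, as 16% of the brightest also met the next step. The genome build was not given in the sources used here. The number of arrays limits the precision.

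The 64 control probe sets were left out, and each of the other 45037 was compared between groups with lmFit and eBayes of limma 3.58.1 (R 4.3.3), without a trend, two-sided, with Benjamini-Hochberg adjustment over all of them and a threshold of 0.05. Differences are Ift88-deleted minus control. The moderated spread had 3.46 prior degrees of freedom beside 2 residual ones. An exact permutation of 2 against 2 arrays cannot give a p under 0.333, so none was used. Genes were named through the array annotation, and 34741 of 34945 probe sets with 1 symbol took that of the RefSeq record. Gene means ran over probe sets that name a gene alone. A few list genes are not analysed here.

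All member probe sets are named, and of each other list the called ones or else up to 3 with the largest difference among those with groups apart, plus Gli1, Ptch1, Lef1, Axin2 and the sex-linked genes. Members and lists were chosen with earlier results of these data known. Alternatives were renewed quantile normalization, subtraction of array medians, a robust spread, the brightest class only, X and Y genes left out, gene means, the replicate number as a block, an adjusted p under 0.1 and leaving out each array. The fit was tested on simulated data.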

Additional observations from a re-analysis of the deposited data

How the results depend on the processing

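The count of 0 member probe sets called held under each alternative tried, the lowest adjusted p of any of them being 0.130, for Cdk6 1435338_at after renewed quantile normalization. Of 273 differences of members under alternatives, 261 kept their sign and 12 reversed. A robust spread, the brightest class only, X and Y genes left out and the replicate block leave each difference unchanged. Their part of the 261 was therefore fixed in advance. So was the sign with 1 array left out for the member probe sets whose groups lay apart (11 higher, 6 lower). Gene means of Cdkn1c, Cdkn2c and Cdkn2d, with 1 probe set each, repeat the main value. Subtracting array medians shifts all differences by the same small amount. The 261 is therefore not a count of separate checks. The 20 calls over all probe sets became 5 with the brightest class only, 5 without X and Y genes, 2 with gene means, 27 at a threshold of 0.1 and 9 to 12 with 1 array left out. With the replicate block the count was 5, and the calls of Ptch1 1428853_at (adjusted p = 0.348) and Tnni2 1416889_at (adjusted p = 0.139) were lost. The deviations of same-numbered arrays correlated at 0.102, and with 2 arrays per group the numbers are not taken as pairs.

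With gene means the sign turned for Ccnd3 1438805_at and 1444323_at (-0.022 for the gene), Cdk6 1460291_at (-0.76), Mdm2 1427718_a_at (0.19), Ptch1 1450824_at (-1.62) and Axin2 1421341_at (0.28), because a mean takes in the gene's other probe sets. Cdkn2c turned to 0.050 after renewed quantile normalization. Leaving out 1 array turned the sign of Ccnd3 1438805_at (-0.028 to 0.16) and 1444323_at (-0.17 to 0.40), Cdk4 1422439_a_at (-0.58 to 0.12), 1422440_at (-0.57 to 0.27) and 1422441_x_at (-0.58 to 0.12), Cdkn1c (-0.48 to 0.13), Cdkn2c (-0.29 to 0.28), Ift88 (-0.064 to 0.22), Ptch1 1450824_at (-0.049 to 0.21), Lef1 1421299_a_at (-0.045 to 0.47), Eif2s3y 1431642_at (-0.027 to 0.20), Uty 1459565_at (-0.049 to 0.30) and Kdm5d 1452562_at (-0.14 to 0.61) and 1452563_a_at (-0.048 to 0.17). Medians ranged over these fits from -0.049 to -0.021 for pocket proteins and E2F (-0.028 after quantile normalization), -0.17 to 0.037 for G1/S partners, -0.083 to 0.012 for p53 targets, -0.30 to 0.044 for S-phase genes, -0.51 to 0.087 for G2/M genes, 0.016 to 0.12 for upstream genes and -0.025 to 0.045 for other cyclins and kinases. The cause of these changes was not tested.

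The 2 arrays per group limit the precision, and signal over background was not measured here.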
